A study of Mus musculus with 10 samples.

Results

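The cytosolic ribosomal protein genes encode the proteins of the ribosome, and they were read here from ribosome footprint counts in mouse embryonic stem cells. Members were the genes of the count table whose symbol starts with Rps or Rpl followed by a digit, together with Rpsa, Rplp0, Rplp1 and Rplp2, without the Rps6k kinases and without pseudogenes. There were 83 such genes of 11011 in the table, 33 named for the small subunit and 50 for the large subunit. Of these, 76 are the standard proteins (31 small, 45 large). The other 7 were taken by symbol: the paralogs Rpl10l, Rpl22l1, Rpl36al, Rpl39l, Rpl7l1 and Rps27l, and Rps19bp1, named for a protein that binds Rps19. Rpl17 was not analysed here.

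A ribosome joins a small subunit, which holds the mRNA and reads its codons, to a large subunit, which forms the peptide bonds and carries the exit tunnel. The proteins are mostly needed in equal numbers, and surplus copies are degraded. Their mRNAs begin with a terminal oligopyrimidine (TOP) tract, through which mTORC1 signalling sets how strongly they are translated. Ribosomal protein genes have also left many processed pseudogenes in mammalian genomes, which keep much of the coding sequence of the parent gene.

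Ribosome profiling sequences the short mRNA stretches that ribosomes protect from nuclease, so a count reflects both the amount of an mRNA and how many ribosomes sit on it; without matched mRNA libraries those parts cannot be told apart. The E14 line (129/Ola background) was cultured in serum with LIF, a cytokine that keeps the cells undifferentiated, and ribosomes were halted with cycloheximide before lysis. Besides wild type (WT), the cells lacked Dgcr8 or Drosha, the nuclear proteins that cut miRNA precursors out of their transcripts, Dicer, which makes the mature miRNA duplex in the cytoplasm, or both Ago1 and Ago2, the proteins that carry miRNAs to mRNAs. There were 2 libraries for each of the 4 knockouts and 2 for WT, and nothing in the labels says whether these came from separate cultures or clones, so the spread between them may be technical.

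Library totals ran from 1754710 counts in the second Dicer knockout library to 80850950 in the first library labelled Dgcr8 knockout, a 46.1-fold range. Levels are given in CPM, counts per 1000000 of the library total after scaling. The targeted genes were at 24.3 and 34.5 CPM for Drosha in the Drosha knockout against 177 and 178 CPM in WT, at 15.8 and 22.1 CPM for Dicer1 in the Dicer knockout against 122 and 124 CPM in WT, and at 14.9 and 6.61 CPM for Ago2 in the Ago1/Ago2 knockout against 81.9 and 81.9 CPM in WT. Ago1 had 27.0 and 10.7 CPM in the Ago1/Ago2 knockout against 14.7 and 14.3 CPM in WT, and the groups overlapped. Dgcr8 itself was higher in the libraries labelled Dgcr8 knockout (145 and 146 CPM) than in WT (32.7 and 33.1 CPM). It was also higher than WT in the Drosha (169 and 197 CPM), Dicer (64.5 and 76.1 CPM) and Ago1/Ago2 knockout (74.6 and 63.5 CPM). Which part of the gene was deleted is not given, so the level of Dgcr8 does not check the label. The 2 libraries are called the libraries labelled Dgcr8 knockout throughout. All 9 embryonic stem cell markers were present, with sums of 4596 to 5863 CPM over the 10 libraries. Endoderm markers (7 of 8 in the table) had sums between 336 and 3490 CPM in the libraries labelled Dgcr8 knockout, 475 and 586 CPM in the Drosha knockout, 272 and 377 CPM in the Dicer knockout and 457 and 595 CPM in the Ago1/Ago2 knockout, against 6341 and 7258 CPM in WT, with 1 of them at 0 in the Dicer knockout. In such bulk libraries fewer cells of a type and less RNA per cell cannot be told apart. The second Ago1/Ago2 knockout library stood apart from the other 9 over the ribosomal protein genes. Its correlation with them over log2 levels of the members was 0.777 to 0.913, while pairs that did not include it gave 0.898 to 0.985.

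Many ribosomal protein genes share their coding sequence with other annotated genes, which can bear on how a 28-base footprint is placed. Each coding sequence was cut into all its 28-base windows, and each window was searched for, on either strand, in the transcripts of every other gene of the mouse annotation, pseudogenes included. In the median member 2.99% of windows were found in no other gene, against 100% in the median of the other genes of the table. Under 50% of windows were unique in 76 of the 83 members, against 7.90% of other genes. No window at all was unique in 32 members, and 20% or more were in 18 members. The annotation names 294 pseudogenes after ribosomal protein genes. The windows below show the contrast. The first 4 are, in lower case, the most widely shared window of their gene, and the next 3, in capitals, are windows found in no other gene.
Rpl29: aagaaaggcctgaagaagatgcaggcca
Rps2: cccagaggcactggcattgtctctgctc
Rpl9: ggttgacaaatggtggggtaacagaaag
Rpl39: caagcgattcctggccaagaaacaaaag
Rps3: GGGAGCTGGCTGAAGATGGCTACTCTGG
Rpl8: CCATGCCTGAGGGTACGATCGTGTGTTG
Rpl4: CCAACTTGAGGAAAAACAACAGACAGCC
The Rpl29 window (coding bases 151 to 178) lay in 65 other annotated genes, the Rps2 window (595 to 622) in 50, the Rpl9 window (168 to 195) in 17 and the Rpl39 window (27 to 54) in 11. By contrast, 77.8% of the windows of Rps3 were unique, 88.6% of those of Rpl8 and 56.5% of those of Rpl4. Each of these 3 windows was taken from the middle of the longest unique run of its gene, and begins at coding base 80 in Rps3, 317 in Rpl8 and 125 in Rpl4. How the authors treated reads that fit several places is not given in the sources used here.

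Per codon, the standard proteins with mostly unique sequence were read at similar levels in WT, whereas the whole group spread over 3 orders of magnitude. Density here is CPM per codon of the coding sequence. Rps3, at the entry of the mRNA channel, had 6.53 ± 0.605 CPM per codon in WT (mean ± SD of the 2 libraries, as for all such values). Rpl8, close to the peptidyl transferase centre, had 6.31 ± 0.345, and Rpl4, which lines the exit tunnel, had 3.46 ± 0.609 CPM per codon. These 3 standard members, each with 50% or more unique windows, therefore lay within 1.89-fold of each other. Rack1, a scaffold protein of the small subunit that does not carry an Rp symbol, had 94.5% unique windows and a density of 6.32 ± 0.0798 CPM per codon in WT.

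Over all 83 members the median density in WT was 0.492 CPM per codon, and the range ran from 0.00310 for Rpl29 to 6.53 for Rps3, a 2108-fold spread. Rps27, a zinc-binding protein of the small subunit, had 0.00491 ± 0.000737, and Rpl39, a short protein of the exit tunnel, had 0.00886 ± 0.00793 CPM per codon. The median density was 0.234 CPM per codon in the 32 members with no unique window, 0.503 in the 33 with some but under 20%, 1.69 in the 11 with 20% to under 50%, and 3.46 in the 7 with 50% or more. The last class also holds Rpl10l (0.227), Rpl39l (1.09) and Rps19bp1 (0.211), which are not standard members. Single members did not all keep the order of these medians. Rpl41, the shortest ribosomal protein at 25 codons, had 5.32 ± 0.118 CPM per codon and no unique window. Rps24 had 2.68 ± 0.585 with 7.53% unique windows, and Rplp0 had 0.457 ± 0.0384 with 21.1%. Across the members of a library, the rank correlation of density with the share of unique windows was 0.448 in the second Ago1/Ago2 knockout library and 0.480 to 0.637 in the other 9. These are descriptions over genes that share a library, and the part of read placement in the densities was not tested. The median was 0.596 CPM per codon for the small subunit and 0.464 for the large subunit in WT, and 0.0625 for the genes that are not members.

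**Figure D1:**
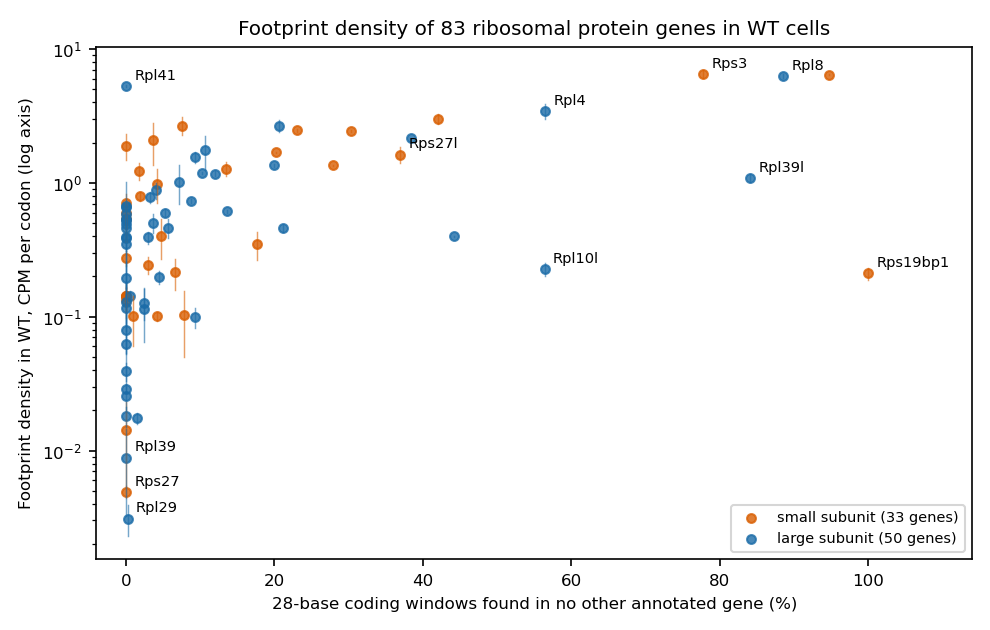
Footprint density in WT (CPM per codon, log axis; point at the mean of 2 libraries, line between them) against the percentage of 28-base coding windows found in no other annotated gene, for the 33 small and 50 large subunit genes. Rps3, Rpl8 and Rpl4 sit at the upper right, at 3.46 to 6.53 CPM per codon, while members with no unique window run from 0.00491 (Rps27) to 5.32 (Rpl41).

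Rps3, Rpl8 and Rpl4 were not called in any knockout, and Rpl8 varied most of the 3. Rps3 had 1703 and 2103 CPM in the libraries labelled Dgcr8 knockout, 1605 and 1709 CPM in the Drosha knockout, 1402 and 1483 CPM in the Dicer knockout, 1337 and 2063 CPM in the Ago1/Ago2 knockout, and 1690 and 1482 CPM in WT. For Rps3 the second Dgcr8-labelled library was the highest of the 10. Rpl8 had 1596 and 2207 CPM in the libraries labelled Dgcr8 knockout, 1680 and 2950 CPM in the Drosha knockout, 1365 and 1665 CPM in the Dicer knockout, 1723 and 2983 CPM in the Ago1/Ago2 knockout, and 1559 and 1684 CPM in WT. Rpl4 had 1709 and 1660 CPM in the libraries labelled Dgcr8 knockout, 1949 and 1704 CPM in the Drosha knockout, 1374 and 1762 CPM in the Dicer knockout, 1364 and 1997 CPM in the Ago1/Ago2 knockout, and 1632 and 1270 CPM in WT. From the lowest to the highest of the 10 libraries Rpl4 moved 1.57-fold, Rps3 1.57-fold and Rpl8 2.18-fold. By edgeR's quasi-likelihood test none of the comparisons of these 3 genes with WT passed, with adjusted p of 0.46 to 0.93. The 95% intervals of their log2 fold changes all included 0 and reached from -0.90 (Rpl8, Dicer knockout) to 1.34 (Rpl8, Ago1/Ago2 knockout), so differences of that size were not excluded by these libraries. Rack1 had 2681 and 3499 CPM in the libraries labelled Dgcr8 knockout, 2094 and 3303 CPM in the Drosha knockout, 2160 and 2751 CPM in the Dicer knockout, 2232 and 2376 CPM in the Ago1/Ago2 knockout, and 2021 and 1985 CPM in WT. Its 8 knockout libraries lay above both WT libraries, with adjusted p of 0.50 to 0.79. The share of all genes that lay to the same side of WT in this way is not given. Such a pattern is therefore not read as a result about a gene, here or below.

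**Figure D2:**
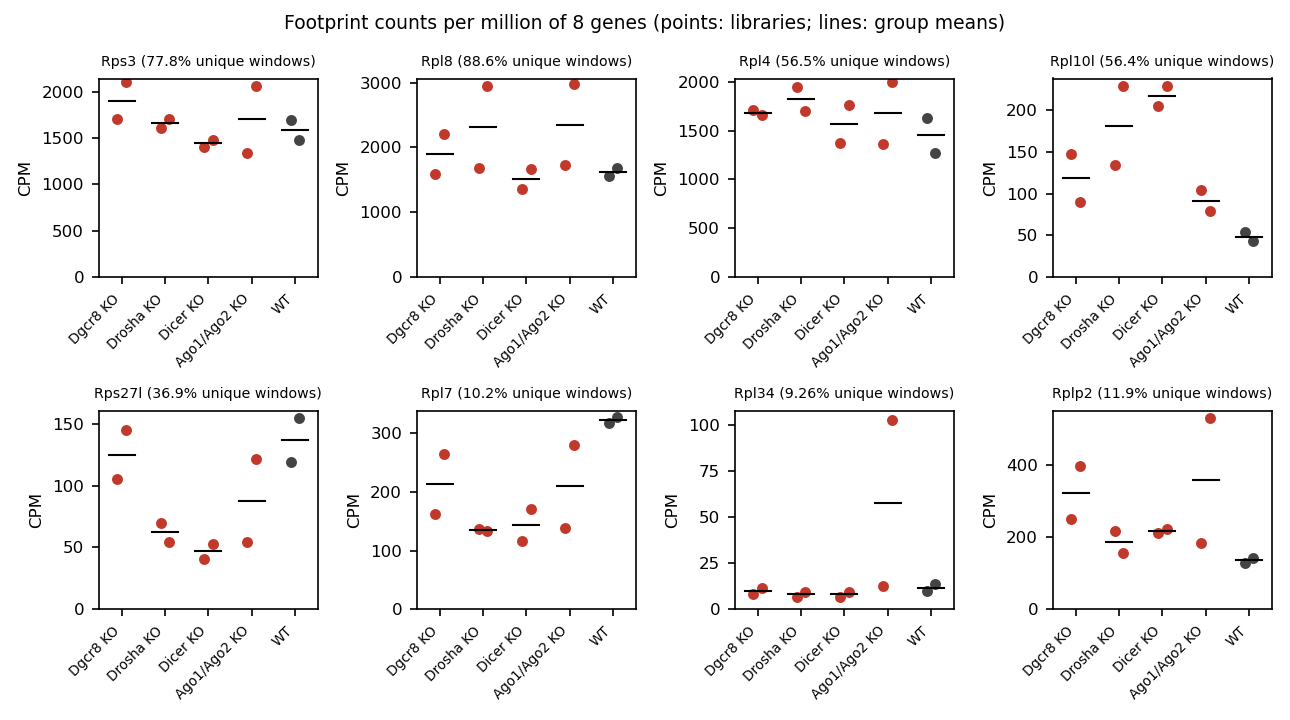
CPM of 8 ribosomal protein genes in the 4 knockout groups and WT (points, libraries; lines, means of 2; axes start at 0). Rps3 and Rpl4 each span 1.57-fold over the 10 libraries, Rpl8 reaches 2950 and 2983 CPM in the second Drosha and second Ago1/Ago2 library, Rpl10l is above WT in every knockout library, Rps27l is lowest in the Dicer knockout at 40.9 and 52.96 CPM, Rpl7 is below WT in every knockout library, Rpl34 stands out in the second Ago1/Ago2 library at 103 CPM, and Rplp2 is above WT in every knockout library.

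Standard members with 20% to under 50% unique windows were read next. Rps9, a partner of Rps3 at the mRNA entry site, had 454 and 839 CPM in the libraries labelled Dgcr8 knockout, 512 and 717 CPM in the Drosha knockout, 487 and 541 CPM in the Dicer knockout, 747 and 686 CPM in the Ago1/Ago2 knockout, and 532 and 637 CPM in WT. Rps14, a protein of the small subunit platform, had 493 and 606 CPM in the libraries labelled Dgcr8 knockout, 448 and 574 CPM in the Drosha knockout, 411 and 522 CPM in the Dicer knockout, 419 and 641 CPM in the Ago1/Ago2 knockout, and 365 and 374 CPM in WT. For Rps9 both Ago1/Ago2 libraries lay above both WT libraries, and the other knockouts overlapped WT. The 8 knockout libraries of Rps14 lay above both WT libraries, with log2 values of 0.33 to 0.57 and adjusted p of 0.36 to 0.57. The share of all genes with this pattern is not given. Rpl22 and Rpl32, both of the large subunit, had 182 to 432 CPM and 254 to 636 CPM in the knockouts, against 276 to 278 CPM and 322 to 398 CPM in WT. Rps21 had 129 and 492 CPM in the Ago1/Ago2 knockout and 59.9 to 199 CPM in the other knockouts, against 140 and 141 CPM in WT. Rps15 had 136 and 358 CPM in the Ago1/Ago2 knockout and 129 to 247 CPM in the other knockouts, against 193 and 199 CPM in WT. The second Ago1/Ago2 library was the highest of the 10 for Rps14, Rps15 and Rps21, but not for Rps9, Rpl22 or Rpl32. Of these genes, and of Rplp0 and Rplp1 of the same class, 0 were called in any knockout. Of all genes tested 0.0729% were called in the libraries labelled Dgcr8 knockout, 3.44% with Drosha knocked out, 11.1% with Dicer knocked out and 2.88% with Ago1 and Ago2 knocked out.

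How much of each library fell on these genes, and how it divided between the subunits, was compared next. Members took 1.53% and 2.01% of all counts in the libraries labelled Dgcr8 knockout, 1.46% and 1.56% with Drosha knocked out, 1.10% and 1.70% with Dicer knocked out, 1.36% and 2.45% with Ago1 and Ago2 knocked out, and 1.44% and 1.36% in WT. The Dgcr8-labelled and the Drosha libraries lay above both WT libraries, and the Dicer and the Ago1/Ago2 libraries overlapped them. For Drosha this depended on the members counted. Without the 3 most counted genes of each subunit the mean share was 0.671% with Drosha knocked out and 0.707% in WT. Over members with 20% or more unique windows it was 1.04% and 0.893%. The small subunit over the large subunit, as a log2 ratio of summed counts, was 0.0702 ± 0.148 in the libraries labelled Dgcr8 knockout, -0.184 ± 0.0105 with Drosha knocked out, -0.182 ± 0.236 with Dicer knocked out, -0.109 ± 0.0485 with Ago1 and Ago2 knocked out and -0.103 ± 0.119 in WT. Single libraries ran from -0.349 (second Dicer knockout library) to 0.175 (second Dgcr8-labelled library), and WT itself from -0.187 to -0.0181. Each knockout group overlapped the WT range, and with 2 libraries a group an exact permutation test cannot reach 0.05. The 5 most counted members alone held 39.4% to 57.2% of the member counts of a library. The 95% Clopper-Pearson interval of the member share in the first Drosha library was 1.44% to 1.48%.

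**Figure D3:**
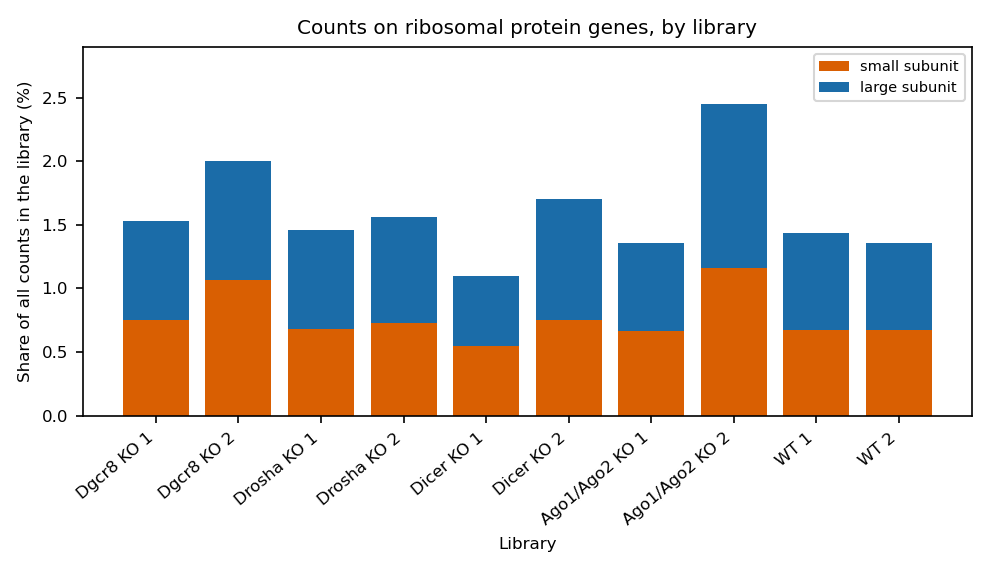
Share of all counts of a library (in %) on small subunit (lower bar part) and large subunit genes (upper part), for the 8 knockout libraries and then the 2 WT libraries. The 2 parts are of similar height in every library, and the total is highest, at 2.45%, in the second Ago1/Ago2 knockout library.

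Relative to WT, the members' medians differed between the 2 libraries of a group, most in the Ago1/Ago2 knockout and next in the Dicer knockout. The median over all members of log2(CPM + 0.5), less its WT mean, was -0.01 and 0.34 in the libraries labelled Dgcr8 knockout, -0.13 and -0.26 with Drosha knocked out, -0.45 and 0.22 with Dicer knocked out, -0.08 and 0.96 with Ago1 and Ago2 knocked out, and 0.10 and -0.10 in WT. The Dgcr8-labelled, the Dicer and the Ago1/Ago2 pair each straddled 0, the Dgcr8-labelled pair only by its -0.01. In the second Ago1/Ago2 library 40 of 83 members were over 2-fold above the WT mean, where 8.5% of all tested genes were, and 2 were over 2-fold below, where 9.47% of all genes were. Small and large subunit genes did so alike, with medians of 0.93 and 0.96. By sequence, the median in that library was 1.27 for the 32 members with no unique window, 1.31 for the 33 with some but under 20%, and 0.54 for the 18 with 20% or more. In the second Dicer library the same 3 medians were 0.72, 0.17 and 0.06.

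**Figure D4:**
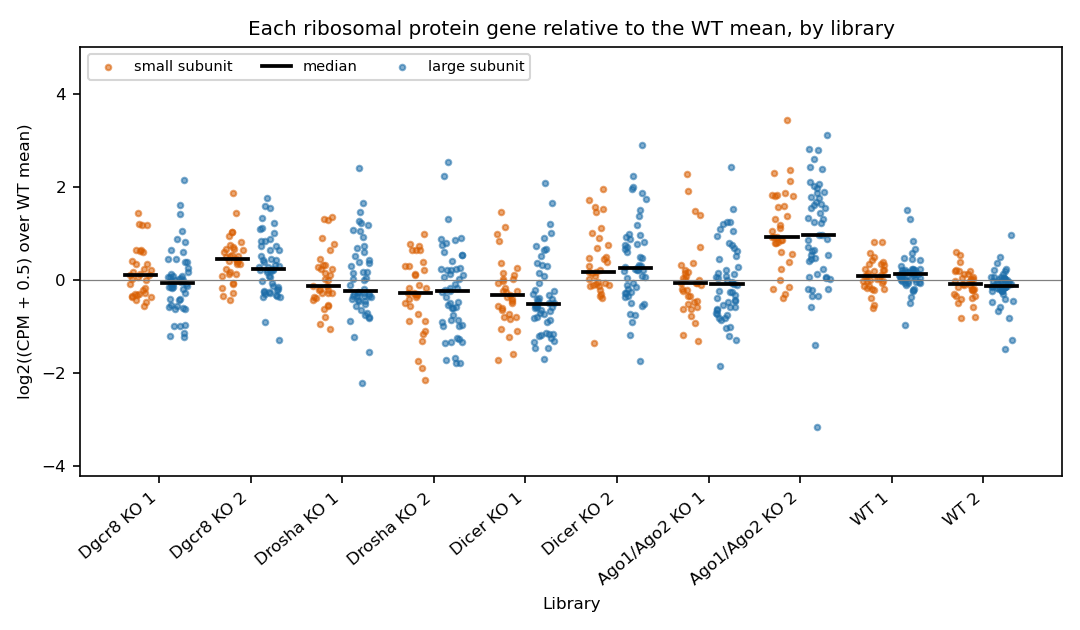
Log2(CPM + 0.5), less its WT mean, for every member (points; bars, medians), small subunit left and large subunit right within each library. The medians lie between -0.52 and 0.45 in 9 libraries and at 0.93 (small) and 0.96 (large) in the second Ago1/Ago2 knockout library.

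Which single members differed from WT was tested for each knockout with edgeR over all 10978 genes that passed a filter on low counts, at an adjusted p under 0.05 (Benjamini-Hochberg). Of the 83 members 82 were tested, and Rpl39, with 0 to 15 counts a library, was not. All comparisons share the same 2 WT libraries. In the libraries labelled Dgcr8 knockout 0 of 82 members were called, where 0.0729% of all genes were. At an unadjusted p under 0.05 there were 6 of 82, where 9.81% of all genes were. Limma-voom also called 0 (0.137% of all genes), and DESeq2 called 1, Rpl10l (1.46% of all genes). The median log2 fold change was 0.33 over the small and 0.16 over the large subunit, beside 0.02 over all genes. The largest positive values were those of Rpl10l (1.29, SE 0.34), Rps20 (1.27, SE 0.43) and Rplp2 (1.25, SE 0.43), with adjusted p of 0.27 to 0.36. Rps20, of the small subunit, had 354 and 847 CPM in the libraries labelled Dgcr8 knockout against 161 and 336 CPM in WT, and its log2 value ran between 0.51 (without the second Dgcr8-labelled library) and 1.90 (without the second WT library) when 1 library was left out.

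In the Drosha knockout 1 member, Rpl10l, was called, and it was higher. Of all genes 3.44% were called, and 2.48% were called higher. The medians were -0.04 for the small and -0.19 for the large subunit, beside -0.01 over all genes. Rpl10, the X-linked parent gene of Rpl10l, had the largest value (log2 2.03, SE 0.64, adjusted p = 0.11), from 12.1 and 38.01 CPM in the Drosha knockout against 6.36 and 5.97 CPM in WT, and has no unique window. It was 0.98 without the second Drosha library. At the other end stood Rpl21 (log2 -1.68, SE 0.69), Rps28 (-1.47, SE 0.69) and Rps29 (-1.32, SE 0.96), none past the threshold. The value of Rps29 ran between -2.34 and -0.61 with 1 library left out. With a term for the run of library numbers 5 members were called, where 8.66% of all genes were.

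In the Dicer knockout 2 members were called, Rpl10l higher and Rps27l lower, where 11.1% of all genes were called, 7.35% higher and 3.76% lower. No standard member was among them. The medians were 0.03 for the small and -0.11 for the large subunit, beside 0.00 over all genes, and 39 of 82 members had a positive fold change. Rpl29 had the largest value (log2 2.20, SE 0.97) on levels of 1.78 and 3.31 CPM in the Dicer knockout against 0.369 and 0.622 CPM in WT, and Rpl36 the lowest (-1.85, SE 1.05), both short of the threshold. Rpl36 had 2.77 and 1.65 CPM in the Dicer knockout against 3.23 and 13.6 CPM in WT, and its value ran between -2.55 (when fitted with the second WT library alone) and -0.47 (with the first alone). With the term for the run of library numbers 7 members were called, where 19.7% of all genes were.

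In the Ago1/Ago2 knockout 0 members were called, where 2.88% of all genes were, although the medians were 0.76 for the small and 0.61 for the large subunit, beside 0.04 over all genes. At an unadjusted p under 0.05 there were 14 of 82, where 19.7% of all genes were. DESeq2 called 6 members (8.49% of all genes) and limma-voom 3 (8.58% of all genes). The fold changes rested on the second library. Without it the medians were -0.07 and -0.09 and 0 members were called (1.77% of all genes). Without the first they were 0.91 and 0.96 and 10 were called higher (0.921% of all genes): Rpl28, Rpl30, Rpl34, Rpl36a, Rpl41, Rplp2, Rps4x, Rps6, Rps16 and Rps23. In that fit the knockout is 1 library, which is assumed to vary like the other groups, and the same holds for the lone library in every fit that leaves one out. Among these 10 the highest share of unique windows was 11.95%, in Rplp2. Rps23, which sits at the decoding centre, had 19.3 and 223 CPM in the Ago1/Ago2 knockout against 18.3 and 22.2 CPM in WT. Rpl34 had 12.6 and 103 CPM there against 9.68 and 13.6 CPM in WT. Both genes were thus high in 1 library alone. Rpl30, which had the smallest adjusted p (0.062, log2 1.40, SE 0.36), was above WT in both, with 130 and 316 CPM in the Ago1/Ago2 knockout against 87.5 and 81.7 CPM in WT. With the term for the run of library numbers, where the value rests on the first library, 4 members were called (6.37% of all genes).

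A test of any difference among the 5 groups called 2 members, Rpl10l (adjusted p = 0.017) and Rpl34 (adjusted p = 0.047), where 6.47% of all genes were called. Rpl34 was at 6.72 to 13.6 CPM in the 9 other libraries and its call was lost on leaving out any library other than the first Ago1/Ago2 library. Rpl10l was not called in this test without either Dicer library or either WT library. Without the first Ago1/Ago2 library 20 members were called, where 8.49% of all genes were. With the mean of the 4 knockouts set against WT, 1 member, Rpl10l, was called higher, where 7.07% of all genes were called and 3.81% were called higher.

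Except for Rpl34, the calls fell on 2 paralogs. Rpl10l (chromosome 12, 66283379 to 66284401, GRCm38) is an autosomal retrogene of the X-linked Rpl10 and is best known in mouse testis, where it stands in for Rpl10 once the X chromosome is silenced. Rpl10l had 148 and 89.7 CPM in the libraries labelled Dgcr8 knockout, 135 and 229 CPM in the Drosha knockout, 205 and 229 CPM in the Dicer knockout, 104 and 79.6 CPM in the Ago1/Ago2 knockout, and 53.9 and 43.3 CPM in WT. All 8 knockout libraries lay above both WT libraries, a pattern whose share over all genes is not given. It rose by a log2 of 1.90 (SE 0.35, adjusted p = 0.018) in the Drosha knockout and 2.16 (SE 0.35, adjusted p = 0.0040) in the Dicer knockout, and by 1.57 over the mean of the knockouts (adjusted p = 0.012, and 0.10 or 0.26 when 1 WT library was left out). The value was 1.29 (adjusted p = 0.27) in the libraries labelled Dgcr8 knockout and 0.92 (adjusted p = 0.16) in the Ago1/Ago2 knockout. Rpl10l was also above WT within each run of library numbers: among libraries 28 to 31 the Dgcr8-labelled, Drosha and Dicer libraries had 148, 135 and 205 CPM against 53.9 CPM in WT, and among libraries 37 to 41 those groups and the first Ago1/Ago2 library had 89.7, 229, 229 and 104 CPM against 43.3 CPM in WT. The call was lost in the Drosha knockout without its second library (adjusted p = 0.083), the first WT (0.11) or the second WT library (0.22), and in the Dicer knockout without the second WT library (0.070). Marker sums of some other cell types also differed from WT. The endoderm sums given above, and the fibroblast sums, were below both WT libraries in all 8 knockout libraries, where Rpl10l was above. The trophectoderm, 2-cell-like and neural sums did not lie on the same side of WT in all 8. Trophectoderm markers (4 of 7 in the table) summed to 135 and 206 CPM in the libraries labelled Dgcr8 knockout, 311 and 343 CPM in the Drosha knockout, 672 and 476 CPM in the Dicer knockout, 157 and 178 CPM in the Ago1/Ago2 knockout, and 125 and 136 CPM in WT. Markers of 2-cell-like cells (2 of 4) summed to 0.557 and 0.996 CPM in the libraries labelled Dgcr8 knockout, and to 15.1 to 71.2 CPM in the 6 other knockout libraries, against 1.29 and 0.332 CPM in WT. Fibroblast markers (3 of 7) summed to 40.3 to 169 CPM in the 8 knockout libraries against 240 and 213 CPM in WT. Neural markers (2 of 4) summed to 61.2 to 136 CPM in the knockout libraries against 72.1 and 71.5 CPM in WT. The 2-cell-like sums of the Dgcr8-labelled libraries, and the trophectoderm sum of the first of them, lay within the WT range. The part of these markers in the level of Rpl10l was not tested.

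Rpl10 and Rpl10l are alike in 544 of 642 coding bases (84.7%), and 56.4% of the windows of Rpl10l were unique. The stretch with the most mismatches (coding bases 118 to 147) is shown with the differing bases in capitals. The corresponding stretch of Rps27l and its paralog Rps27 (coding bases 6 to 35) follows. The differing bases tell the genes of a pair apart.
Rpl10l: aaGgcGaaGgtGgatgaGttTccactCtgC
Rpl10: aaAgcAaaAgtTgatgaAttCccactTtgT
Rps27l: CctGgcTaGAgatctGTtAcaCccTtcCTT
Rps27: TctCgcAaAGgatctCCtTcaTccCtcTCC
Rpl10l took 85.8% to 95.3% of the counts of the pair in the 8 knockout libraries and 89.4% and 87.9% in WT. Rpl10 was at 4.71 to 38.01 CPM in the knockouts and 6.36 and 5.97 CPM in WT. Rpl10 itself has no unique window, and how reads that fit several places were counted is not given. The shares are therefore not read as the level of Rpl10l relative to Rpl10. The part of read placement in them was not tested.

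Rps27l (chromosome 9, 66946086 to 66949516) is a paralog of Rps27 and a known p53 target. It had 106 and 145 CPM in the libraries labelled Dgcr8 knockout, 69.6 and 54.6 CPM in the Drosha knockout, 40.9 and 52.96 CPM in the Dicer knockout, 54.3 and 121 CPM in the Ago1/Ago2 knockout, and 119 and 155 CPM in WT. The Drosha and Dicer libraries lay below both WT libraries, and the other knockout libraries overlapped WT in part. Rps27l fell by a log2 of 1.55 (SE 0.39, adjusted p = 0.026) in the Dicer knockout, and its value was -1.14 (SE 0.38, adjusted p = 0.13) in the Drosha knockout, -0.64 (0.37) in the Ago1/Ago2 knockout and -0.13 (0.96) in the libraries labelled Dgcr8 knockout. The Dicer call was lost without the first (0.22) or second Dicer library (0.082) and without the first (0.076) or second WT library (0.19), with the log2 value between -1.76 and -1.35. Rps27 itself, without a unique window, was at 0.415 to 3.89 CPM in the knockout libraries and at 0.369 and 0.456 CPM in WT, and is alike to Rps27l in 76.2% of coding bases.

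The other paralogs passed no test. Rpl39l, with 84.1% unique windows, had 148 and 64.0 CPM in the libraries labelled Dgcr8 knockout and 48.9 to 78.9 CPM in the other knockouts, against 59.2 and 51.8 CPM in WT. Rpl7l1, which takes part in ribosome assembly, had 59.3 to 153 CPM in the knockouts against 96.7 and 99.2 CPM in WT. Its relative Rpl7 was lower than both WT libraries in all 8 knockout libraries, with 163 and 264 CPM in the libraries labelled Dgcr8 knockout, 137 and 133 CPM in the Drosha knockout, 117 and 172 CPM in the Dicer knockout, 139 and 280 CPM in the Ago1/Ago2 knockout, and 317 and 328 CPM in WT. Its log2 values were -1.26 (SE 0.37, adjusted p = 0.089) in the Drosha and -1.16 (SE 0.37, adjusted p = 0.063) in the Dicer knockout, both short of the threshold, and both were called (adjusted p 0.047 to 0.048 and 0.032) on leaving out either Ago1/Ago2 library. Rpl7 has 10.2% unique windows, and the share of all genes that were below WT in all 8 knockout libraries is not given. Rpl22l1 was at 6.55 to 70.3 CPM in the knockouts against 26.7 and 21.4 CPM in WT, and Rpl36al at 2.55 to 15.4 CPM against 18.9 and 5.68 CPM in WT.

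Within functional parts of the ribosome, no member was called. The P stalk recruits the elongation factors. Its base, Rplp0, moved 1.69-fold over the 10 libraries, with 106 to 180 CPM in the knockout libraries against 154 and 136 CPM in WT, and Rplp1 was at 102 to 240 CPM against 150 and 158 CPM in WT. Rplp2 had 249 and 397 CPM in the libraries labelled Dgcr8 knockout, 217 and 157 CPM in the Drosha knockout, 212 and 221 CPM in the Dicer knockout and 184 and 530 CPM in the Ago1/Ago2 knockout, against 129 and 142 CPM in WT. All 8 knockout libraries were above WT for Rplp2, with adjusted p of 0.10 to 0.60, and the share of all genes with this pattern is not given. Rpl5 and Rpl11, which bind 5S rRNA and can hold Mdm2 when unassembled, also differed between the libraries of some groups. Rpl5 had 330 and 57.2 CPM in the libraries labelled Dgcr8 knockout, 234 and 49.4 CPM in the Drosha knockout, 124 and 554 CPM in the Dicer knockout, 120 and 49.4 CPM in the Ago1/Ago2 knockout, and 210 and 26.1 CPM in WT. Rpl11 had 62.7 and 161 CPM in the libraries labelled Dgcr8 knockout, 37.5 and 34.5 CPM in the Drosha knockout, 30.7 and 254 CPM in the Dicer knockout, 39.05 and 254.8 CPM in the Ago1/Ago2 knockout, and 72.6 and 66.2 CPM in WT. Neither has a unique window. The knockout groups overlapped WT, except for Rpl11 in the Drosha knockout, where both libraries lay below both WT libraries. Of the X-linked members Rps4x was at 40.9 to 190 CPM in the knockouts against 73.6 and 54.6 CPM in WT, and Rpl36a at 1.31 to 23.5 CPM against 4.79 and 3.48 CPM in WT. Of 8 tested exit tunnel members and 7 on the mRNA channel and decoding side, 0 were called in any knockout, with median log2 values of 0.22, -0.43, -0.09 and 0.58 for the tunnel and 0.12, -0.23, 0.15 and 0.38 for the channel in the Dgcr8-labelled, Drosha, Dicer and Ago1/Ago2 libraries. Of 18 members mutated in Diamond-Blackfan anaemia, a human disorder of red cell formation, 0 were called in any knockout. The share of all genes called was 0.0729% to 11.1% over the 4 knockouts, as given above.

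The difference between the 2 libraries of a group was larger for members without unique sequence. For the 32 members with no unique window, the median absolute log2 difference was 0.80 in the libraries labelled Dgcr8 knockout, 0.81 in the Drosha knockout, 1.18 in the Dicer knockout, 2.25 in the Ago1/Ago2 knockout and 0.41 in WT. For the 18 with 20% or more it was 0.54, 0.30, 0.35, 0.61 and 0.14 in the same order of groups, and for other tested genes 0.42, 0.50, 0.33, 0.45 and 0.24. Some members with no unique window had few counts, such as Rpl36 (2 and 18) and Rps27 (2 and 3) in the Drosha libraries. Counting error on the log2 scale is larger at such counts. The parts of level and of sequence in this difference were not tested. Rpl12, at the base of the stalk, had 161 and 7.14 CPM in the Ago1/Ago2 knockout, and 168 and 27.3 CPM in WT. Rpl12, like 13 other members, overlaps another gene of the table, and 29 members have a small nucleolar RNA gene within their span. Members with such a gene inside differed by a median of 0.78 between the Dgcr8-labelled libraries, 0.68 with Drosha knocked out, 0.57 with Dicer knocked out, 1.30 with Ago1 and Ago2 knocked out and 0.47 in WT. For members without one the medians were 0.60, 0.47, 0.52, 1.56 and 0.34 in the same order of groups, so the order of the sets was not the same in every group.

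**Figure D5:**
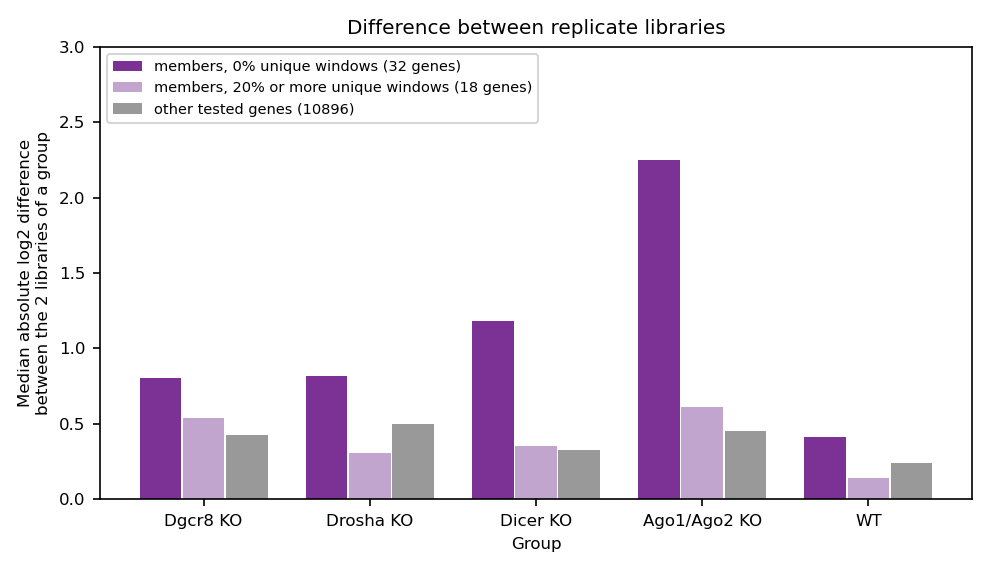
Median absolute log2 difference between the 2 libraries of each group (bars start at 0), for the knockouts and then WT. Bars of members with no unique window are the tallest in every group, from 0.41 in WT to 2.25 in the Ago1/Ago2 knockout, and bars of members with 20% or more unique windows reach 0.61.

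Genes that act on ribosomal proteins or on ribosome assembly were read alongside. Of 21 other TOP mRNAs, such as the elongation factor gene Eef2, 0 were called in any knockout, with medians of 0.36, 0.14, -0.12 and 0.26 in the same order of knockouts. The share of all genes called was 0.0729%, 3.44%, 11.1% and 2.88% in that order. Likewise 0 were called of 16 genes of rRNA transcription and of 9 chaperones of ribosomal proteins. Of 61 genes of rRNA processing and ribosome assembly, 3 fell in the Dicer knockout and 0 rose, where 3.76% of all genes were called lower and 7.35% higher, and 0 were called in the other knockouts. The 3 of 61 are near the share over all genes. Ddx18, a helicase of large subunit assembly, had 36.2 and 48.0 CPM in the Dicer knockout against 86.1 and 96.5 CPM in WT, a log2 change of -1.13 (SE 0.28, adjusted p = 0.026). Nip7, a factor of pre-rRNA processing, had 51.2 and 70.6 CPM in the Dicer knockout against 142 and 131 CPM in WT, a log2 change of -1.17 (SE 0.33, adjusted p = 0.040). Rrs1, which helps to bring the 5S particle into the large subunit, had 24.7 and 39.2 CPM in the Dicer knockout against 66.7 and 96.7 CPM in WT, a log2 change of -1.38 (SE 0.39, adjusted p = 0.045). The median over the 61 genes was -0.30 there, beside 0.00 over all genes. Of 22 mTORC1 and TOP regulators 1 was called, Rheb, the GTPase that activates mTORC1, at 26.3 and 30.3 CPM in the Dicer knockout against 63.0 and 59.2 CPM in WT, a log2 change of -1.12 (SE 0.30, adjusted p = 0.037). Of 14 genes of stalled ribosome quality control 1 was called, Ascc3, a helicase that splits collided ribosomes, which rose to 74.0 and 130 CPM in the Dicer knockout, against 46.5 and 49.0 CPM in WT, a log2 change of 1.08 (SE 0.30, adjusted p = 0.042). Of 10 genes of Mdm2 and p53, the p53 target Phlda3 was called, at 18.3 and 14.7 CPM in the Ago1/Ago2 knockout against 47.6 and 64.3 CPM in WT, a log2 change of -1.76 (SE 0.31, adjusted p = 0.017). The 5 Dicer calls were each lost without either Dicer library or either WT library, Ascc3 also without the second Drosha library, with total counts (adjusted p = 0.051) and by limma-voom (0.062), and Rheb also by limma-voom (0.058). That of Phlda3 was lost without the second Ago1/Ago2 library or either WT library, and no direction turned.

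TOP tracts were read from the 30 bases around the annotated transcription start, from RefSeq (GRCm38.p6), which gave a start for 64 members. A tract was taken as C at the start base followed by at least 4 C or T on the coding strand. It was present in 13 of the 64 members (20.3%), against 2.86% of 8666 other genes of the table, and 38 (59.4%) had such a run beginning within 10 bases of the start, against 36.9% of the others. In these examples the tract, which begins at the start base, is in capitals.
Rps6: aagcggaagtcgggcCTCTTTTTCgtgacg
Rpl15: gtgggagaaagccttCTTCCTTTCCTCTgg
Rps10: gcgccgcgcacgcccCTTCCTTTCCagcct
The windows lie at chr4:86857353-86857382 for Rps6, chr14:18270972-18271001 for Rpl15 and chr17:27635230-27635259 for Rps10, all on the minus strand. Tract and no-tract members were not tested against each other, and a match of letters does not show which start site these cells use.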

How the data were processed

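Ribosome-protected fragments were sequenced from 10 libraries of E14 mouse embryonic stem cells, 2 for each of 5 groups. Per the labels' protocols, cycloheximide was given at 0.1 mg/mL for 2 min, lysates were digested with RNase I, monosomes were taken on spin columns, rRNA was depleted and Drosophila spike-ins were added. The tools named in the submitters' processing notes are Bowtie2 and Trimmomatic, and the builds are mm10 (GRCm38) and dm6 (BDGP6). The authors deposited whole-number counts per gene, not normalized. The counter, its strand setting and the choice of genes are not given in the sources used here. Columns were matched by library number; the Ago columns carry other replicate numbers than the titles, whose numbers were used.

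Counts were analysed with edgeR 4.0.16 in R 4.3.3 (TMM, filterByExpr, quasi-likelihood, 1 mean per group over all 10 libraries, 5 residual degrees of freedom), with p-values adjusted over 10978 genes. SEs were derived from the F statistic. Counts were simulated for Dicer knockout versus WT with 10978 genes, of which 100 changed 2-fold and 100 changed 4-fold. Of these, 3% of the 2-fold and 53% of the 4-fold changes were recovered. The real comparison called 1220 genes, so its cutoff on unadjusted p was less strict. Log2 changes of 1.08 (Ascc3) and -1.12 (Rheb) were called there. The simulated shares therefore do not give the reach of the real test, and changes may still have been missed. Coding lengths and windows of 28 bases came from GENCODE M21, using the APPRIS principal transcript. A count of 0 allows up to 3 counts, which is 0.0371 to 1.71 CPM by library; this floor and the intervals cover counting error only. Named members were those called, the 3 with the largest change per direction, the density extremes, the P stalk, 5S, X-linked and paralog members, and list genes with the smallest adjusted p; The details of Rpl7, Rpl34, Rps23, Rack1 and the members with unique windows were added after their values were seen. Members and lists were chosen with earlier results of these data known. Alternatives were other scalings, no filter, DESeq2 1.42.0, limma-voom (limma 3.58.1), blocks and left-out libraries. Some members are not reported here.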

Additional observations from a re-analysis of the deposited data

How the results depend on the processing

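At these depths, and with 2 libraries a group, changes may have been missed. On simulated counts most 2-fold changes were missed, but fewer genes were changed there than were called in the Dicer knockout. Of the values that summarise the members, 158 of 208 under another setting, and 143 of 182 with 1 library left out, stayed within 1.5 times (counts) or 1 SD (other values) of the reported value; of the values of named genes 265 of 278 and 270 of 310 kept their direction and their side of the threshold. The cause of the other changes was not tested unless the setting itself gives it.

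Members called in the libraries labelled Dgcr8 knockout, the Drosha, the Dicer and the Ago1/Ago2 knockout numbered 0, 1, 2 and 0. DESeq2 called 1, 3, 3 and 6, and 3 for the mean of the knockouts. Its share of all genes was 1.46% in the Dgcr8-labelled and 8.49% in the Ago1/Ago2 libraries. Limma-voom called 3 in the Ago1/Ago2 knockout (8.58% of all genes). Fits of only the groups compared called 3 in the Drosha and 12 in the Dicer knockout. For these fits, and for the other DESeq2 counts, the share of all genes is not given. Those counts are therefore not read as results about the members. A term for the run of library numbers gave 5 in the Drosha, 7 in the Dicer and 4 in the Ago1/Ago2 knockout, 8 for the mean and 5 for any difference among groups. In those 3 knockouts it called 8.66%, 19.7% and 6.37% of all genes. That term leaves the second Ago1/Ago2 library alone in its run, so the fold change of that knockout then rests on the first library, with medians of -0.29 for the small and -0.13 for the large subunit. Among members with 20% or more unique windows, 1 was called for any difference, Rpl10l.

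Replicate numbers are shared between groups, but the correlation of the libraries' deviations from their group means was 0.061 to 0.287 over the 10 pairs of groups. It was positive in all 10 and under 0.1 in 1, and the labels do not say what a number marks, so the numbers were not taken as pairs. The positive sign is a hint from the data and not the design. That 10 of 10 libraries were closest to another library of their own number follows from it and adds no further hint. With 2 libraries a group, the 2 deviations from the group mean are mirror images. With the replicate block 2 members were called in the Drosha and 2 in the Ago1/Ago2 knockout, 3 for the mean and 5 for any difference. The share of all genes called with this block is not given, so these counts are not read as results about the members.

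With each library left out in turn, members called ranged from 0 to 0 in the libraries labelled Dgcr8 knockout, 0 to 2 in the Drosha, 0 to 4 in the Dicer and 0 to 10 in the Ago1/Ago2 knockout, 0 to 4 for the mean and 0 to 20 for any difference. The shares of all genes called are not given for all of these fits, so the counts are not read as results about the members. The median log2 of the large subunit ranged from -0.11 to 0.36, -0.34 to -0.039, -0.58 to 0.24 and -0.09 to 0.96 in the same order of knockouts, and that of the small subunit from 0.069 to 0.45, -0.30 to -0.042, -0.40 to 0.17 and -0.074 to 0.91. Directions turned for Rpl12 (range -1.82 to 0.84) and Rpl36al (-1.34 to 0.41) in the libraries labelled Dgcr8 knockout, both without the first WT library, and for Rps23 in the Ago1/Ago2 knockout (-0.072 to 3.45, and -0.30 with the run term).

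The large subunit median in the Drosha knockout was -0.18 with RLE size factors, -0.15 with total counts, -0.20 with TMM factors from the other genes, -0.16 without the filter, -0.18 with DESeq2, -0.15 with limma-voom, -0.26 with the replicate block and -0.20 with the run term, and 0.044 over members with 20% or more unique windows, where the same median in the libraries labelled Dgcr8 knockout was 0.38. Without the 3 most counted genes of each subunit the member share was 0.891%, 0.671%, 0.737% and 1.06% in the knockouts in that order and 0.707% in WT. Over members with 20% or more unique windows it was 1.14%, 1.04%, 0.868% and 1.11% in the knockouts and 0.893% in WT. Outside the 50 most counted other genes it was 1.72% in the Drosha knockout and 1.59% in WT. The log2 ratio of small over large subunit was -0.138 in the Drosha knockout without paralogs and Rps19bp1. Without the 3 most counted genes of each subunit it was -0.0943 in the Drosha and -0.158 in the Ago1/Ago2 knockout, and -0.223 in WT. With 20% or more unique windows it was -0.104, 0.0743 and 0.196 in the Drosha, Dicer and Ago1/Ago2 knockouts and 0.173 in WT, and the ratio of the WT median densities, small over large, was 1.81. The windows of 20% or more, the list without paralogs and the longest coding transcript were chosen after seeing the data. A RefSeq protein length was not run, as no protein table was used here.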
